A study of Mus musculus with 12 samples.

Results

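The genes that write, copy, oxidise and excise DNA methylation, with those of the dehydrogenases that supply their cofactor, were followed through 4 genotype labels. They comprise the TET dioxygenases Tet1, Tet2 and Tet3, the DNA methyltransferases Dnmt1, Dnmt3a and Dnmt3b, the maintenance cofactor Uhrf1, the DNA glycosylase Tdg, and the isocitrate dehydrogenases Idh1 and Idh2. These 10 genes were taken by symbol from a table of 55450 genes, and all 10 passed the filter on low counts that left 14346 genes for testing. The cells were donor bone marrow progenitors that lack mature lineage markers and carry the stem cell factor receptor Kit, sorted from mouse recipients of competitive transplants. Total RNA was sequenced after depletion of ribosomal RNA in 12 libraries, 3 of each label. The labels were WT, Tet2KO for cells without Tet2, Id1KO for cells without Id1, and dKO for the pair, which the labels write as Tet2 KO + Id1KO, all on donor cells in transplanted hosts. The labels name no allele, promoter, donor age or time after transplantation. All libraries of a label carry 1 sample number, so they may be repeats of 1 pool of sorted cells, and each p-value below measures only the spread between these libraries. The design allows 2 questions to be put to these genes, namely how they differ with loss of Tet2 and whether loss of Id1 alters that difference.

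In mammalian DNA, methyl groups are added to cytosine in CpG dinucleotides. Dnmt3a and Dnmt3b place new methyl groups, and Dnmt1, guided to newly copied DNA by Uhrf1, restores the pattern after replication. TET enzymes oxidise methylated cytosine with oxygen and 2-oxoglutarate, and Tdg removes the most oxidised forms so that base excision repair can insert unmodified cytosine. Idh1 and Idh2 make 2-oxoglutarate, in the cytosol and in mitochondria respectively. TET2, DNMT3A, IDH1 and IDH2 are recurrently mutated in clonal hematopoiesis or myeloid leukemia, and TET2 loss raises the self-renewal of blood stem cells. Id1, the other gene of the design, encodes an inhibitor that keeps basic helix-loop-helix factors from E-box DNA.

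RefSeq promoters on GRCm38.p6, 250 bases before to 50 after a transcript start, were available for all 10 genes, 16 promoters in all. The TET promoters are shown because these genes differed most between labels and because CpG dinucleotides are the substrate of the enzymes themselves. The third Dnmt1 promoter is shown because it held the sole match to an E2F site, the element of genes switched on in S phase. Sequences run 5′ to 3′ on the strand of the gene. Capitals mark CpG dinucleotides in the TET promoters and the E2F letters in that of Dnmt1. The Tet1 promoter lies at chr10:62887275-62887574, that of Tet2 at chr3:133544341-133544640, that of Tet3 at chr6:83441629-83441928 and that of Dnmt1 at chr9:20952574-20952873, all on the minus strand.
Tet1: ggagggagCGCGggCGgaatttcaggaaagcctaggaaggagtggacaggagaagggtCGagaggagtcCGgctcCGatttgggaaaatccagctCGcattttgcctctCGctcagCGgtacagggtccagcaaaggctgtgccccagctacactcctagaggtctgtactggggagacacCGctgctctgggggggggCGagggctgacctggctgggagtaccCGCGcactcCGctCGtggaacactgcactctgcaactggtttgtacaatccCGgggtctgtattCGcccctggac
Tet2: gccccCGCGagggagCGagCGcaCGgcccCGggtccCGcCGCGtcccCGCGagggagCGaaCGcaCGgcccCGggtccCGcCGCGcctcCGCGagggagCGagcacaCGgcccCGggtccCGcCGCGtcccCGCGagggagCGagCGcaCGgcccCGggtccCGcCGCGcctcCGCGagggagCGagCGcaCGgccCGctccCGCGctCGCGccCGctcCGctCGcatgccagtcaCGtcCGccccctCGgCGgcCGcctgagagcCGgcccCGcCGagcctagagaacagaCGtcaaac
Tet3: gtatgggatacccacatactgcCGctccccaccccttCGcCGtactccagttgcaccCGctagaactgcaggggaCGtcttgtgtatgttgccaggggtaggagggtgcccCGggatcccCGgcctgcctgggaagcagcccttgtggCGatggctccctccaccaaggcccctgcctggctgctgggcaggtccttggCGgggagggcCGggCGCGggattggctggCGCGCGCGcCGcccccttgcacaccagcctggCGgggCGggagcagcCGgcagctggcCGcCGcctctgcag
Dnmt1: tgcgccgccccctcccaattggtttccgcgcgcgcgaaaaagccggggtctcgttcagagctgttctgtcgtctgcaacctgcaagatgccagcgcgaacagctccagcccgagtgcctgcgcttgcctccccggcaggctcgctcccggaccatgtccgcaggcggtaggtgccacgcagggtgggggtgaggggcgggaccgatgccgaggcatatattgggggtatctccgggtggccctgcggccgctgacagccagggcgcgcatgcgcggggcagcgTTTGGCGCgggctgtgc

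The Tet2 promoter held 57 CpG dinucleotides, against 17 for Tet1 and 22 for Tet3. Over 32851 promoters of this length the median was 7, with quartiles of 3 and 20. Of the 16 promoters of these enzymes 11 held at least 20, and the lowest was the first of the 3 Dnmt1 promoters, with 2. The E2F letters searched were TTTCCCGC and TTTGGCGC, on both strands. Dnmt1 alone of the 10 genes matched, with TTTGGCGC, whose last letters hold a CpG, and 1.6% of all promoters held either sequence. The E-box CANNTG was found in promoters of 8 of the 10 genes and in 72.3% of all promoters. Its form CACGTG, which is a case of CANNTG, was found in Tdg and in the third Dnmt3a promoter and in 7.2% of all. These matches describe letters in a window and do not show binding.

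Total estimated counts ran from 15706407 in a dKO library to 19959183 in a WT library, and the 10 genes had at least 462 counts in every library. Values are in CPM, counts scaled to the TMM-adjusted size of each library, and differences are log2 fold changes with their standard error (SE) and the adjusted p of edgeR's quasi-likelihood test over all 14346 genes. Kit was at 314 to 377 CPM throughout. Summed over 8 progenitor markers, Kit among them, the level was 1771 to 1808 CPM in dKO, 1844 to 1872 in Id1KO, 1914 to 1947 in WT and 1950 to 1987 in Tet2KO. Against WT, 5 of the 8 were higher and 2 lower in Tet2KO, 1 higher and 3 lower in Id1KO, and 1 higher and 4 lower in dKO. The endothelial marker Cdh5 had at most 3 counts and the T cell marker Cd3e at most 1. Lymphoid transcripts were present all the same. The sum of 7 T or NK markers was 114 to 124 CPM in dKO, 132 to 134 in Id1KO, 138 to 143 in WT and 150.3 to 151.7 in Tet2KO. Only 2 of these 7 passed the filter on low counts. The sum of 6 B lymphoid markers lay between 23.8 CPM in a dKO library and 35.6 in a Tet2KO library. Libraries of a label were close, with a common biological coefficient of variation of 0.0305, and differed between labels in lineage and sex transcripts. The summed level of 13 erythroid markers was 725 to 730.0 CPM in Tet2KO, 1259 to 1269 in dKO, 1302 to 1347 in WT and 1398 to 1411 in Id1KO. Car1 and Car2 make up most of that sum, and its members did not all run alike: in dKO against WT 5 of the 13 were higher and 1 lower, and Hbb-bs was at 14.04 ± 1.4 CPM (SD, n = 3) in dKO beside 7.53 ± 0.51 in WT. For 6 monocyte markers it was 1102 to 1109 CPM in Id1KO, 1230 to 1278 in WT, 1400 to 1430 in dKO and 1521 to 1556 in Tet2KO. These 6 did not all follow their sum either. Against WT, 3 were higher and 1 lower in Tet2KO, 3 higher and 2 lower in dKO, and 0 higher and 5 lower in Id1KO. The sum of 6 megakaryocyte markers was 220 to 232 CPM in Id1KO and 154 to 173 in the other labels, and that of 9 neutrophil markers was 11637 to 12828 CPM in Id1KO and dKO and 14073 to 15783 in WT and Tet2KO. The neutrophil markers did not all follow their sum. In dKO against WT 3 of the 9 were higher and 3 lower, and in Id1KO against WT 2 were lower and 0 higher. In dKO against Id1KO 4 were higher and 1 lower. Small structural and mitochondrial RNA took 10.4% to 10.8% of counts in WT and 7.32% to 8.28% elsewhere. Fewer cells of a type and less RNA per cell cannot be told apart in such bulk samples. Xist, made from the inactive X chromosome, was at 262 ± 9.99 CPM (SD, n = 3) in WT, 64.9 ± 4.3 in Id1KO, 16.7 ± 0.36 in dKO and 10.8 ± 1.1 in Tet2KO. The part of these differences in the results below was not tested.

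In the libraries labelled null, transcripts of neither Tet2 nor Id1 were reduced, so each genotype name below is a label that transcript levels do not bear out. Tet2 was higher in both sets of libraries labelled null for Tet2, with values given below. A count covers the whole gene and does not tell which of the 14 merged exons of Tet2 its reads came from. Counts per exon were not examined. Id1 was at 1.47 ± 0.27 CPM (SD, n = 3) in WT and at 3.96 ± 0.34 in Id1KO, 3.93 ± 0.50 in dKO and 3.86 ± 0.42 in Tet2KO.

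Per kilobase of merged exons, the maintenance machinery and Idh2 stood far above the TET genes. Averaged over the 12 libraries, Idh2 was at 98.8 CPM per kb, Dnmt1 at 94.0 and Uhrf1 at 93.3. Idh1 followed at 37.0 CPM per kb, Tdg at 13.4, Dnmt3b at 10.7 and Tet3 at 9.22. Tet2 was at 6.51 CPM per kb, Dnmt3a at 6.19 and Tet1, the least abundant of the 10, at 2.16. With the longest annotated transcript as the length, Tet3 and Dnmt3b exchanged places and the other 8 kept their rank.

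In Tet2KO against WT 5 of the 10 enzyme genes passed the threshold of an adjusted p under 0.05, all higher: Tet1, Tet2, Tet3, Dnmt3a and Idh2. The background was high, since 32.8% of all tested genes passed it and 16.6% passed it as higher. Among the 5890 genes at least as abundant as Tet1, the share that passed in either direction was 45.3%. The median log2 fold change of the 10 genes was 0.07, against -0.00 over all tested genes. In Id1KO against WT 4 of the 10 passed, all lower (Tet1, Tet2, Uhrf1 and Idh1), where 15% of all genes passed, 7.26% higher and 7.77% lower. In dKO against WT 2 passed, Tet2 and Tet3, both higher, beside a background of 19.2%, of which 10.2% was higher and 8.97% lower. In dKO against Tet2KO 7 passed, of which Tet1, Tet2, Tet3, Dnmt3a and Idh1 were lower and Dnmt3b and Uhrf1 higher, beside a background of 26.4%, with 13.1% higher and 13.4% lower. In dKO against Id1KO 3 passed, Tet2, Tet3 and Uhrf1, all higher, beside 19.3%, with 10.6% higher and 8.7% lower. For the interaction, the log2 difference of dKO from Tet2KO less the one of Id1KO from WT, 3 passed, Uhrf1 with a positive value and Tet1 and Dnmt3a with negative ones, beside 14.5%, of which 7.46% was positive and 7.03% negative. The interaction also tests whether the Tet2 label differed between Id1 backgrounds. Their shares of 50%, 40%, 20%, 70%, 30% and 30% are counts over 10 genes chosen with earlier results of these data known, and comparisons that share a label share its 3 libraries. Among the 5890 genes at least as abundant as Tet1, 45.3%, 21.9%, 24.4%, 39.3%, 25.4% and 22.1% passed, in the same order.

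**Figure D1:**
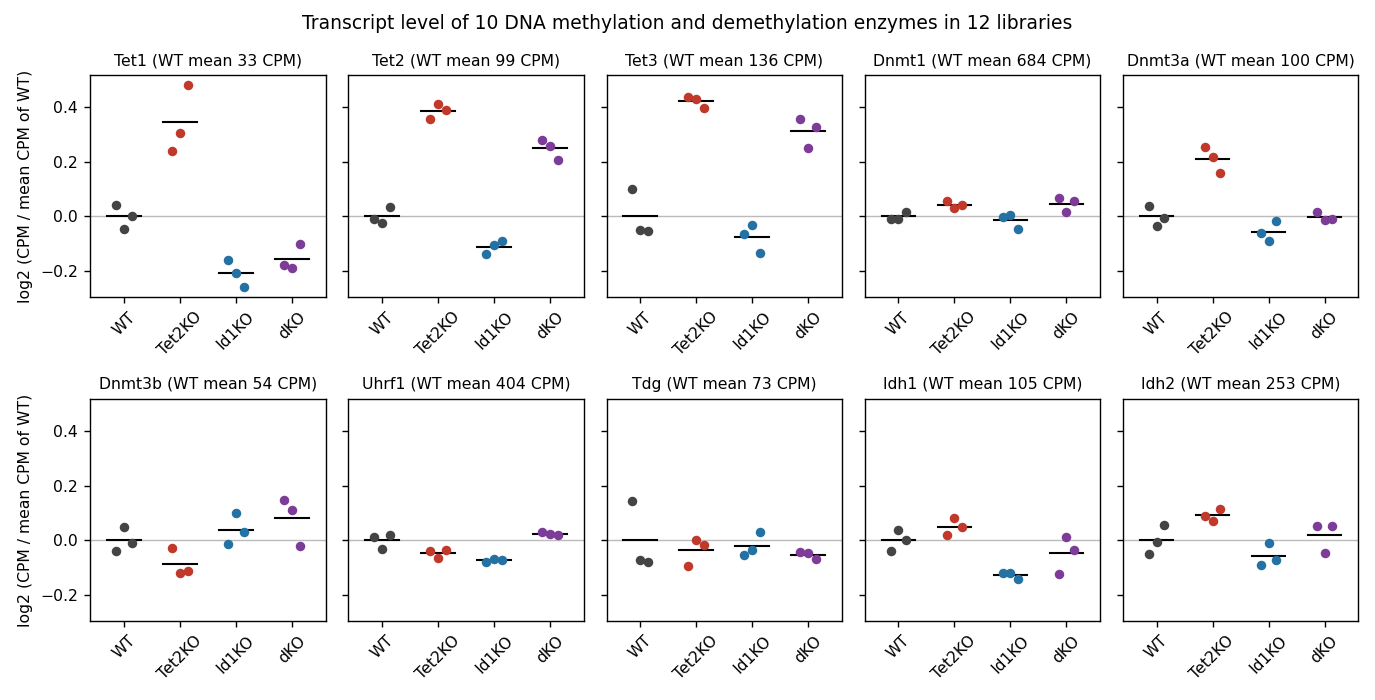
Level of each of the 10 enzyme genes in every library, as log2 of CPM over the mean CPM of the WT libraries (vertical axis), by genotype label (horizontal axis); points are libraries and the black line is the mean of 3. Tet2 and Tet3 lie above WT in all 6 libraries labelled Tet2KO or dKO, while Tet1 and Dnmt3a lie above WT in the 3 labelled Tet2KO and not in the 3 labelled dKO.

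Tet2 (ENSMUSG00000040943.12; GRCm38 chromosome 3, 133463679 to 133545139, minus strand) is the TET gene most often lost in clonal hematopoiesis. Its level was 98.6, 97.6 and 102 CPM in the WT libraries and 127, 132 and 130.3 CPM in Tet2KO. It was 90.3, 92.5 and 93.3 CPM in Id1KO and 121, 119 and 115 CPM in dKO. The order was Tet2KO, dKO, WT and Id1KO, and no library of one label overlapped those of the next. The share of all tested genes that also lack overlap is not given here, so a lack of overlap, here or below, is not shown to be particular to these genes. The log2 fold change was 0.39 ± 0.030 in Tet2KO against WT (edgeR adjusted p 7.99e-09) and 0.36 ± 0.031 in dKO against Id1KO (5.82e-08). In dKO against WT it was 0.25 ± 0.031 (7.21e-06). Both comparisons for the Id1 label were negative, at -0.11 ± 0.031 in Id1KO against WT (0.0214) and -0.14 ± 0.030 in dKO against Tet2KO (0.002). The first of these missed the threshold without WT replicate 3 (adjusted p 0.123), without Id1KO replicate 1 and with DESeq2 (0.0786). The interaction of Tet2 was -0.03 ± 0.044 (0.734). Reads of a 43 bp exonic overlap with Gm42567 on the opposite strand cannot be assigned, as the strand setting of the counting is not given in the sources used here.

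Tet3 (ENSMUSG00000034832.15; chromosome 6, 83362373 to 83459084, minus strand), the most abundant TET gene here, followed the pattern of Tet2. WT libraries were at 146, 131 and 131 CPM and Tet2KO libraries at 184, 183 and 179 CPM. Id1KO libraries were at 130.0, 133 and 124 CPM and dKO libraries at 174, 162 and 171 CPM. Tet2KO and dKO libraries all stood above every WT and Id1KO library, and WT and Id1KO overlapped. The log2 fold change of Tet3 was 0.42 ± 0.039 in Tet2KO against WT (edgeR adjusted p 7.61e-08), 0.39 ± 0.040 in dKO against Id1KO (5.94e-07) and 0.31 ± 0.039 in dKO against WT (8.99e-06). For the Id1 label it was -0.07 ± 0.040 in Id1KO against WT (0.228) and -0.11 ± 0.039 in dKO against Tet2KO (0.0404). That last difference missed the threshold without any 1 of the 3 Tet2KO libraries or without dKO replicate 2 or 3, with an adjusted p of up to 0.145. The interaction of Tet3 was -0.04 ± 0.056 (0.734).

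Tet1 (ENSMUSG00000047146.17; chromosome 10, 62804570 to 62908996, minus strand), better known from embryonic stem cells and germ cells, departed from its paralogs in dKO. Its level was 34.1, 32.1 and 33.2 CPM in WT and 39.1, 41.0 and 46.2 CPM in Tet2KO. It was 29.7, 28.7 and 27.7 CPM in Id1KO and 29.3, 29.0 and 30.9 CPM in dKO. The Tet2KO libraries were the highest, the Id1KO and dKO libraries overlapped, and both of these stayed below WT. The log2 fold change of Tet1 was 0.35 ± 0.057 in Tet2KO against WT (edgeR adjusted p 8.42e-05), and in dKO against Id1KO it was 0.05 ± 0.062 (0.612). In dKO against Tet2KO it fell by 0.50 ± 0.059 on the log2 scale (3.05e-06). The difference between the 2 backgrounds was itself tested, and the interaction was -0.30 ± 0.084 (0.0218). It missed the threshold without Tet2KO replicate 3 (0.0621), the highest library, and without Id1KO replicate 1. In Id1KO against WT it was -0.21 ± 0.059 (0.0214), a difference that missed the threshold without WT replicate 1 or 3 or Id1KO replicate 2 or 3, with an adjusted p of up to 0.0936. In dKO against WT it was -0.15 ± 0.060 (0.078).

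The summed TET level per kilobase of merged exons shows how these genes combined. It was 14.7 to 15.3 CPM per kb in Id1KO, 15.7 to 16.8 in WT, 18.6 to 19.5 in dKO and 21.1 to 21.5 in Tet2KO, with no overlap between labels. Tet1 supplied 9.73% to 10.5% of the sum in dKO and 12% to 13.9% in the other labels. Tet2 supplied 34.9% to 37.9% and Tet3 48.9% to 53.7% over all libraries. These sums are of transcripts, and the libraries labelled null for Tet2 may hold Tet2 transcripts without function.

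Differences with the Tet2 label moved with transcript length, and the TET genes are among the longest of the 10. In Tet2KO against WT the median log2 fold change of all tested genes was -0.07 for longest transcripts of up to 1000 bp, 0.11 for those from 8000 to 12000 bp (550 genes) and 0.20 beyond 12000 bp (134 genes). In dKO against Id1KO these medians were -0.01, 0.06 and 0.17. The longest transcripts of the members are 9179 bp for Tet2, 10904 bp for Tet3, 14369 bp for Tet1 and 9685 bp for Dnmt3a, and lie between 1790 and 5870 bp for the other 6. Relative to the median of the genes nearest in length, at most 500 genes, Tet2 differed by 0.28 between Tet2KO and WT and by 0.30 between dKO and Id1KO. For Tet3 these differences were 0.26 and 0.28, for Tet1 0.18 and -0.06, and for Dnmt3a 0.08 and -0.03. In dKO against Tet2KO they were -0.44 for Tet1 and -0.17 for Dnmt3a. The median of the neighbours in Tet2KO against WT was 0.13 for Dnmt3a, beside its own 0.21, and 0.11 for Tet2, beside its own 0.39. The part of length in these results was not tested.

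**Figure D2:**
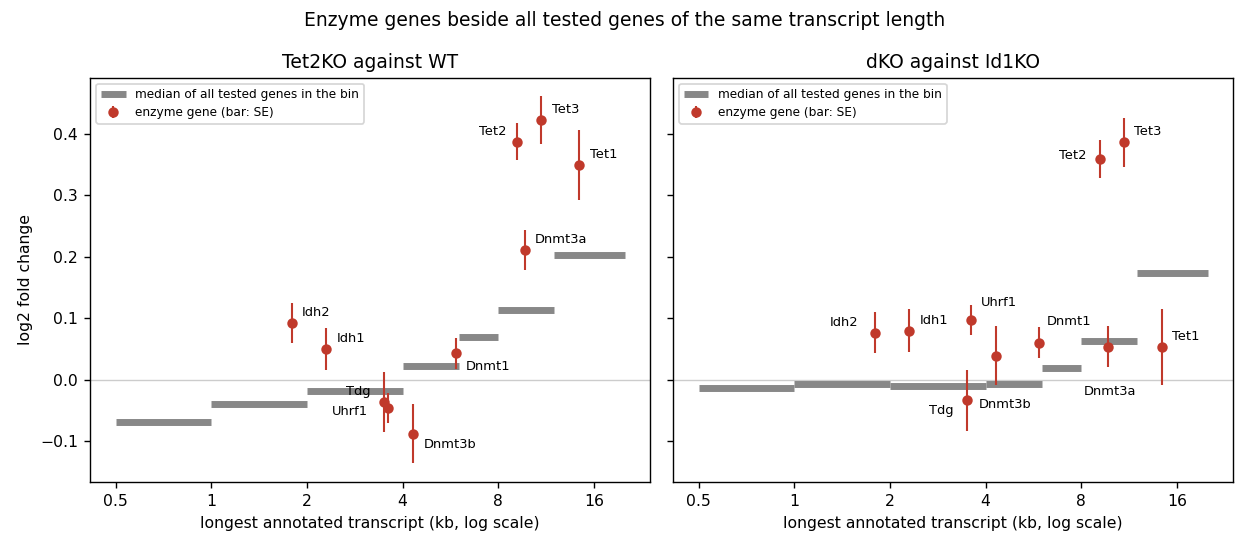
Log2 fold change (vertical axis) against the length of the longest annotated transcript in kb (horizontal axis, log scale) for the 10 enzyme genes, with SE bars, and for all tested genes as medians of 7 length bins (grey). The medians rise to 0.20 between Tet2KO and WT and to 0.17 between dKO and Id1KO in the bin of the longest transcripts, and Tet2 and Tet3 lie above the median of their bin in both.

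Dnmt1 (ENSMUSG00000004099.16; chromosome 9, 20907209 to 20959888, minus strand), the maintenance methyltransferase, passed the threshold in none of the 6 comparisons by edgeR. It was at 680.0, 680.2 and 692 CPM in WT and 711, 699.9 and 704 CPM in Tet2KO. In Id1KO it was at 684, 687 and 662 CPM and in dKO at 717, 692 and 712 CPM. WT overlapped with Id1KO and dKO, as did Tet2KO with dKO, and the labels spanned 662 to 717 CPM in all. The log2 fold changes of Dnmt1 ran from -0.01 in Id1KO against WT (adjusted p 0.773) to 0.06 in dKO against Id1KO (0.101), which passed without dKO replicate 2 (0.0456). A p that misses the threshold does not show that values did not differ.

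Uhrf1 (ENSMUSG00000001228.14; chromosome 17, 56303321 to 56323486, plus strand), which brings Dnmt1 to hemimethylated DNA at the fork, differed by small amounts. WT libraries were at 407, 395 and 409.6 CPM and Tet2KO libraries at 393, 386 and 394 CPM. Id1KO libraries were at 382, 386 and 384 CPM and dKO libraries at 413, 410.0 and 409 CPM. Id1KO was lowest and Tet2KO next with no overlap between them, and dKO overlapped with WT. Uhrf1 was higher in dKO than in Id1KO, with a log2 fold change of 0.10 ± 0.025 (edgeR adjusted p 0.00737), and its interaction was 0.14 ± 0.035 (0.00812). Both passed in all 12 fits that each left out 1 library. The difference in Id1KO against WT, -0.07 ± 0.024 (0.0457), passed in 2 of those 12 fits, and that in dKO against Tet2KO, 0.07 ± 0.025 (0.0408), in 3. The processed copy Gm5648, 98.3% identical over 1590 bp, held 69 counts over all libraries, and adding it left these values unchanged to 2 decimals.

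Dnmt3a (ENSMUSG00000020661.15; chromosome 12, 3806007 to 3914443, plus strand), the de novo enzyme mutated in clonal hematopoiesis, was higher in the Tet2KO libraries than in all others. It was at 103, 97.7 and 99.6 CPM in WT and at 119, 116 and 112 CPM in Tet2KO. The Id1KO values were 95.9, 93.9 and 98.9 CPM and the dKO values 101, 99.1 and 99.3 CPM. WT and dKO overlapped, and Id1KO lay below dKO. In log2 terms it differed by 0.21 ± 0.033 in Tet2KO against WT (edgeR adjusted p 4.80e-05) and -0.21 ± 0.033 in dKO against Tet2KO (7.61e-05), 2 comparisons that share the Tet2KO libraries. In dKO against WT it was -0.00 ± 0.033 (0.974) and in dKO against Id1KO 0.05 ± 0.034 (0.296). The interaction was -0.16 ± 0.047 (0.0285), which passed in 6 of the 12 fits that left out 1 library and had an adjusted p of 0.0718 with DESeq2. It missed the threshold without WT replicate 2 or 3, Tet2KO replicate 1 or 2, Id1KO replicate 3 or dKO replicate 3, with an adjusted p of up to 0.0787.

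Dnmt3b (ENSMUSG00000027478.15; chromosome 2, 153649450 to 153687730, plus strand), the other de novo enzyme, passed in 1 comparison. It was at 52.6, 56.0 and 53.8 CPM in WT and 53.1, 49.8 and 50.03 CPM in Tet2KO. In Id1KO it was at 53.6, 58.0 and 55.4 CPM and in dKO at 59.9, 58.5 and 53.3 CPM. In the order of means, dKO, Id1KO, WT and Tet2KO, each label overlapped with the next. Only dKO against Tet2KO passed, with a log2 fold change of 0.17 ± 0.049 (edgeR adjusted p 0.0149), and not without Tet2KO replicate 2 or 3 or dKO replicate 1 or 2 (adjusted p of up to 0.0808). Per kilobase, Dnmt3a made up 40.7% to 41.8% of the sum of both de novo genes in Tet2KO and 33.2% to 37.5% in the other labels. Dnmt1 made up 84.2% to 85.5% of the sum of all 3 methyltransferases in every library.

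Set against the methyltransferases, the summed TET transcripts ran higher in the libraries labelled null for Tet2, as a description without a test, although Tet1 in dKO lay below every WT library. The ratio of the TET sum to the DNMT sum, both per kilobase, was 0.138 to 0.139 in Id1KO, 0.144 to 0.154 in WT, 0.167 to 0.169 in dKO and 0.185 to 0.192 in Tet2KO. No label overlapped another. With longest transcripts as lengths the ratios were 0.172 to 0.173, 0.179 to 0.191, 0.210 to 0.213 and 0.230 to 0.239, in the same order. These ratios carry the length trend described for the TET genes.

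**Figure D3:**
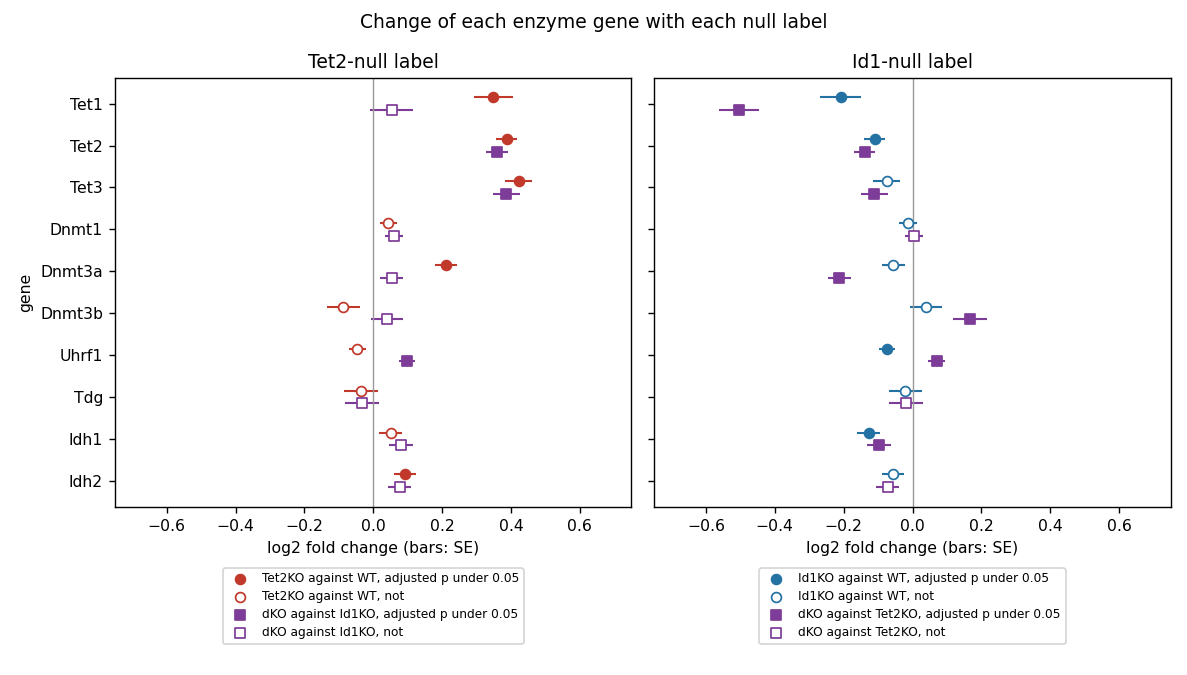
Log2 fold change with SE (horizontal axis) of each of the 10 enzyme genes (vertical axis) with the Tet2-null label (left, Tet2KO with WT and dKO with Id1KO) and the Id1-null label (right, in Id1KO against WT and dKO against Tet2KO); filled marks have an edgeR adjusted p under 0.05. Tet2 and Tet3 are shifted by 0.36 to 0.42 on both backgrounds at left, and Tet1 shows the largest shift at right, -0.50 in dKO against Tet2KO.

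Tdg (ENSMUSG00000034674.18; chromosome 10, 82629828 to 82650799, plus strand), the glycosylase that completes TET-dependent demethylation, passed in no comparison. It was at 80.7, 69.5 and 69.1 CPM in WT and 68.5, 73.2 and 72.3 CPM in Tet2KO. In Id1KO it was at 70.3, 71.3 and 74.6 CPM and in dKO at 70.9, 70.8 and 69.7 CPM. All labels overlapped, WT replicate 1 was the highest library, and the adjusted p ran from 0.501 to 0.988. Tdg is uncertain in these counts: its processed copies Tdg-ps (98.7% identical over 2968 bp) and Gm9855 (99.2% over 1194 bp) held 106 and 797 counts over all libraries, and 367 bp of its exons overlap Glt8d2 on the opposite strand. With the copies added, the log2 fold change was -0.08 in Tet2KO against WT (edgeR adjusted p 0.183) and -0.11 in dKO against WT (0.123).

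Idh1 (ENSMUSG00000025950.16; chromosome 1, 65158616 to 65186500, minus strand), the cytosolic isocitrate dehydrogenase, was lowest in Id1KO. It was at 102, 107 and 105 CPM in WT and 106, 111 and 108 CPM in Tet2KO. In Id1KO it was at 96.3, 96.2 and 94.97 CPM and in dKO at 96.0, 106 and 102 CPM. The Id1KO libraries lay below all WT and Tet2KO libraries and overlapped with dKO. The log2 fold change of Idh1 was -0.13 ± 0.035 in Id1KO against WT (edgeR adjusted p 0.0157) and -0.10 ± 0.035 in dKO against Tet2KO (0.0449). The first missed the threshold without WT replicate 2 or 3 or Id1KO replicate 1 or 3 (up to 0.0891). The second passed in 5 of the 12 fits that left out 1 library, and its adjusted p was 0.223 without dKO replicate 1.

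Idh2 (ENSMUSG00000030541.16; chromosome 7, 80094846 to 80115392, minus strand), the mitochondrial isoenzyme, was the most abundant of the 10 per kilobase. It was at 244, 252 and 263 CPM in WT and 269, 266 and 274 CPM in Tet2KO. In Id1KO it was at 238, 251.2 and 241 CPM and in dKO at 263, 245 and 262 CPM. Tet2KO stood above all other libraries, while WT, Id1KO and dKO overlapped. Its log2 fold change in Tet2KO against WT was 0.09 ± 0.033 (edgeR adjusted p 0.0358), and it missed the threshold without WT replicate 1 or 2 or Tet2KO replicate 1 or 3 (up to 0.131). Against the genes nearest in length, Idh2 differed by 0.11. The ratio of Idh2 to Idh1 per kilobase lay between 2.49 and 2.93 in every library.

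Other genes of the pathway were taken from lists chosen with earlier results of these data known, and are given as counts. They were not compared with genes of like length, although differences with the Tet2 label moved with length as described above. A list for 2-oxoglutarate supply and use is given for 20 genes. Some of them, such as Sdha, Fh1 and Cs, act elsewhere in the citrate cycle and not on 2-oxoglutarate itself, and Slc23a2 is a transporter. Of the 20, 11 were lower and 1 higher in Tet2KO against WT, where 16.2% of all tested genes were lower. The median log2 fold change of the 20 was -0.10. The lower genes included the citrate cycle enzymes Idh3a (-0.26), Dld (-0.21), Dlst (-0.19), Cs (-0.15) and Sdha (-0.12), and the transaminase Got1 (-0.52). The transaminase Got2 was at 233 ± 1.5 CPM (SD, n = 3) in WT and 208 ± 2.9 in Tet2KO. It was lower both in Tet2KO than in WT and in dKO than in Id1KO, at -0.16 and -0.07 (edgeR adjusted p 6.19e-05 and 0.0439).

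In dKO against Tet2KO, which shares the Tet2KO libraries, 9 of the 20 were higher and 1 lower, beside 13.1% of all genes higher. In dKO against Id1KO Ogdh (0.13) was higher and Got2 alone was lower, and in Id1KO against WT the median of the 20 was -0.01, as it was over all tested genes. The interaction passed for 6 of the 20, all positive, among them Got1 (0.40), Idh3a (0.36) and Dld (0.17), beside 7.46% of all genes. Idh1 and Idh2 did not share this pattern, with interactions of 0.03 and -0.02 (edgeR adjusted p 0.75 and 0.869). The summed erythroid markers given above were also lowest in Tet2KO, and their part in these counts was not tested.

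**Figure D4:**
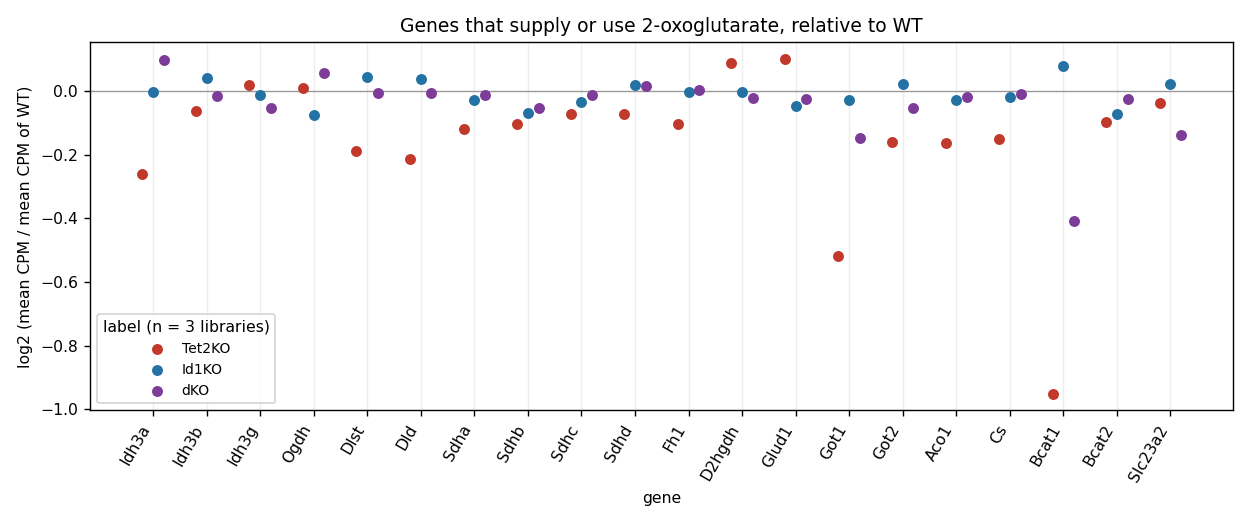
Mean level of 20 genes listed for 2-oxoglutarate supply and use (horizontal axis), in libraries labelled Tet2KO, Id1KO and dKO, as log2 of mean CPM over the mean CPM of WT (vertical axis, n = 3 libraries each). Some of the 20 act elsewhere in the citrate cycle and not on 2-oxoglutarate itself. Tet2KO points lie lowest for most genes, with Got1 at -0.52 and Bcat1, at about 2 CPM or less in every label, at -0.95.

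Genes listed for the supply of the methyl donor S-adenosylmethionine numbered 13, and not all of them make it. In Tet2KO against WT 2 were higher, Ahcy among them, and 6 lower, beside 16.6% and 16.2% of all genes. Mat2a, the synthetase itself, was at 312 ± 3.6 CPM (SD, n = 3) in WT, 269 ± 7.0 in Id1KO, 263 ± 10.4 in dKO and 259.9 ± 4.0 in Tet2KO. It was lower than WT in all 3 other labels, by log2 fold changes of -0.21, -0.24 and -0.26 in that order (edgeR adjusted p 5.38e-05, 7.02e-06 and 1.27e-06). Mthfd1, of the folate cycle, went from 292 ± 6.3 CPM in WT to 219 ± 4.4 in Tet2KO and stood at 293 ± 9.9 in dKO. Ahcy, which clears the product inhibitor S-adenosylhomocysteine, cannot be read alone. Its log2 fold change was 0.97 in Tet2KO against WT, but the sum with Gm4737, Gm9826 and Gm7292 changed by -0.19. In dKO against Tet2KO the 2 values were -2.05 and 0.20. Gm4737, annotated as protein-coding, was 99.7% identical to Ahcy over 2083 bp and held 33094 counts over all libraries. The processed copy Gm9826 was 99.2% identical over 1299 bp and held 70 counts.

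Of 14 tested partners of the maintenance and de novo enzymes, 3 were higher and 2 lower in Tet2KO against WT, shares close to the 16.6% and 16.2% over all genes. In dKO against Id1KO 4 were higher and 1 lower, beside 10.6% and 8.7%. Higher in both were Nsd1, a histone methyltransferase whose mark recruits Dnmt3a (0.20 and 0.15), and Ehmt1 (0.12 and 0.10). Hells, a remodeller needed for methylation, was at 158 ± 5.2 CPM (SD, n = 3) in Tet2KO and 152 ± 2.4 in WT, and passed in no comparison. Usp7, which stabilises Dnmt1, was -0.08 in Tet2KO against WT (edgeR adjusted p 0.0399). Dnmt3l, the germline cofactor, was below 1 CPM in every label and passed in none.

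Of 10 tested genes listed as readers of methylated CpG or as members of the MBD family, 5 were higher and 1 lower in Tet2KO against WT. In dKO against Id1KO the counts were also 5 and 1, beside 16.6% and 10.6% of all genes higher. Zbtb33 had log2 fold changes of 0.38 and 0.44, Mbd6 of 0.43 and 0.34 and Mbd5 of 0.43 and 0.22. Mbd6 and Mbd5 are members of the MBD family by sequence, which alone does not make them readers. Zbtb33 overlaps Tmem255a, which had 5 counts over all libraries, on the opposite strand. Mbd4, a glycosylase for deaminated methylcytosine, was 0.18 in Tet2KO against WT (edgeR adjusted p 0.0105) and -0.03 in dKO against Id1KO (0.781). Mbd2 was higher with the Id1 label in both comparisons, by 0.11 in Id1KO against WT and 0.16 in dKO against Tet2KO.

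Of 15 base excision genes tested, 1 was higher and 4 lower in Tet2KO against WT, beside 16.6% and 16.2% of all genes. Gadd45a, a stress protein tied to demethylation, was lower in Tet2KO against WT (-0.41) and dKO against Id1KO (-0.27), and overlaps E230016M11Rik. The uracil glycosylase gene Ung was lower in Id1KO against WT (-0.17) and dKO against Tet2KO (-0.14). Apex1, the endonuclease that follows Tdg, and Smug1, another glycosylase, passed in no comparison, and Apex1 shares 877 bp of exons with Pip4p1.

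Among 8 tested partners and recruiters of TET proteins, 5 were higher and 1 lower in Tet2KO than in WT, while 2 were higher and 1 lower in dKO than in Id1KO. Of all genes, 16.6% were higher and 16.2% lower in the first comparison and 10.6% and 8.7% in the second. Ogt, the glycosyltransferase bound by TET proteins, was at 184 ± 2.2 CPM (SD, n = 3) in WT, 217 ± 11.6 in dKO, 222 ± 3.3 in Tet2KO and 230.2 ± 5.2 in Id1KO. The blood transcription factors Runx1 and Spi1, both reported to bring Tet2 to DNA, were higher in both comparisons, Runx1 by 0.24 and 0.32 and Spi1 by 0.12 and 0.13. Spi1 was lower in Id1KO against WT (-0.15) and in dKO against Tet2KO (-0.14). Dcaf1, part of a ligase that modifies TET proteins, was lower in both, at -0.13 and -0.12.

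S phase genes are given because Dnmt1 and Uhrf1 are made mainly in cycling cells. The summed level of 30 such genes was 5882 to 5945 CPM in Tet2KO, 6038 to 6168 in Id1KO, 6137 to 6300.3 in WT and 6175 to 6247 in dKO. In Tet2KO against WT 14 of the 30 were lower and 1 higher, with Cdc6 at -0.19, beside 16.2% and 16.6% of all genes. Of the 30, 10 were higher and 1 lower in dKO against Tet2KO, beside 13.1% and 13.4%. Uhrf1 had values of -0.05 and 0.07 in these comparisons and Dnmt1 of 0.04 and 0.00. Of 16 germline genes known to be silenced by methylation 10 had a count, and only Ddx4 and Syce1 reached the level for testing. Ddx4 was at 0.616 ± 0.082 CPM (SD, n = 3) in Tet2KO, 1.19 ± 0.23 in WT, 1.34 ± 0.071 in dKO and 1.61 ± 0.61 in Id1KO. Syce1 had 26 to 35 counts per library in WT and 23 to 46 in dKO, and 0 in all 6 Tet2KO and Id1KO libraries, where 3 counts is the limit that a count of 0 allows.

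Genes whose levels ran most like those of Tet2, Dnmt1 and Uhrf1 were sought among 9828 genes by Pearson's r of log2 CPM over the 12 libraries, as a description without a test. Libraries of a label are close to repeats, so r mostly reflects the 4 label means. For Tet2 these were Qser1 (0.991), Ahnak (0.988) and Psap (0.988). Qser1, whose protein is reported to guard promoters with TET1, was at 52.7 ± 1.2 CPM (SD, n = 3) in Id1KO, 59.6 ± 0.33 in WT, 76.9 ± 2.4 in dKO and 86.6 ± 3.0 in Tet2KO. Qser1 and Ahnak have longest transcripts of 9037 and 18100 bp, close to or above that of Tet2, and Psap one of 2657 bp. For Dnmt1 they were Zfp236 (0.947), Dpp9 (0.943) and Thbd (0.938). For Uhrf1 they were Nudc (0.951), Pspc1 (0.917) and Dgat2 (0.905).

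A stricter fit summed the 3 libraries of each label and estimated 1 additive effect for each null label, with 1 residual degree of freedom. Each effect pools both backgrounds, and that residual is the interaction. Genes with a larger interaction, such as Tet1 and Dnmt3a, are thus left with a larger residual than Tet2 and Tet3. For the Tet2 label 232 genes passed, against 2229 at an unadjusted p under 0.05, and the enzyme genes among them were Tet3 at 0.41 (edgeR adjusted p 0.0254) and Tet2 at 0.38 (0.0317). Tet1 at 0.21 (0.351) and Dnmt3a at 0.14 (0.354) did not pass. For the Id1 label 7 genes passed, against 1428 unadjusted, and none of the 10. The lowest p of the 10 there was that of Tet1, 0.00729 at a log2 change of -0.35, with an adjusted p of 0.418.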

How the data were processed

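The labels' protocols give a micro RNA kit and stranded total RNA libraries depleted of ribosomal RNA. The deposited table holds expected counts per gene for 12 libraries, not normalized by the authors, and 5.06% of the values are not whole numbers. STAR, RSEM and the build mm10 are named in the submitters' processing notes, with no role or version. The strand setting and the annotation are not given in the sources used here. All 55450 identifiers and symbols matched GENCODE M21 (GRCm38).

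The values were rounded to whole counts, and edgeR's filterByExpr removed genes under a minimum count of 10. All 12 libraries were scaled by TMM and fitted together by edgeR's quasi-likelihood model, with 1 mean per label and 8 residual degrees of freedom. F-tests were two-sided, with Benjamini-Hochberg adjustment over 14346 genes and a threshold of 0.05. Libraries of 15706407 to 19959183 counts give the SEs printed. Exact permutation of 3 and 3 libraries cannot reach a p under 0.1, so none was run.

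The 10 genes, the lists, the tests and the alternatives were chosen with earlier results of these data known. Some genes of 1 list are not reported here, and its counts are over the other 20. Named pathway genes passed in the same direction in both comparisons for a label, had a mean of at least 5 CPM, and were at most 3 per list and label by size of change. Hells, Mbd4, Usp7, Ogt, Ahcy, Mat2a, Smug1, Apex1 and Dnmt3l were added as partners. Other list genes that are named, and Xist, were chosen after their values were seen. Libraries of a label were checked for double deposits, and all 12 pairs differed beyond sampling noise (chi-square over genes of at least 20 counts), as repeat preparations of 1 pool also could, with a median squared difference 1.18 to 2.10 times that of sampling. Between labels it was 2.89 to 5.94 times over 54 pairs. Copies were sought with blast at 95% identity over at least 100 bp.

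The steps were tested on simulated libraries for Tet2KO against WT with 200 changed genes. At a 1.2-fold change 45% of these were recovered, with 2 false calls, and at a 2-fold change 90%, with 6 false calls. Alternatives were RLE scaling, DESeq2, TMM leaving out mitochondrial and structural RNA genes, no filter, 10 counts in every library of a label, only the libraries compared, a replicate block, summed copies or overlapping genes, libraries summed per label, leaving out each library, and longest transcript lengths. Comparison with genes of like length was an alternative chosen after seeing the data. The software was blast 2.17.0, Python 3.11.15 with matplotlib 3.10.9, and R 4.3.3 with DESeq2 1.42.0, edgeR 4.0.16 and limma 3.58.1.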

Additional observations from a re-analysis of the deposited data

Results flagged for a closer look

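The change from Tet2KO to dKO differed from the change from WT to Id1KO, by the edgeR interaction test adjusted over all 14346 genes, for 3 of the 10 enzyme genes. The difference was 0.14 on the log2 scale for Uhrf1 (adjusted p 0.00812), where all 3 dKO libraries lay above all 3 Tet2KO libraries and all 3 Id1KO libraries below all 3 WT libraries. For Tet1 it was -0.30 (adjusted p 0.0218), and Tet1 was lower than in the compared label in 3 of 3 dKO libraries and in 3 of 3 Id1KO libraries. The value for Dnmt3a was -0.16 (adjusted p 0.0285), and it was lower than in Tet2KO in 3 of 3 dKO libraries, while Id1KO and WT overlapped. The difference for Tet1 was lost without Tet2KO replicate 3 or Id1KO replicate 1, and that for Dnmt3a in 6 of the 12 fits that left out 1 library. Of all tested genes 14.5% passed this test, and of the 5890 genes at least as abundant as Tet1 22.1% did. The share of all genes whose libraries did not overlap is not given here. The cause of these differences was not tested.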

How the results depend on the processing

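Of the log2 fold changes of the 10 genes over all alternatives, 1168 kept direction and side of the threshold, 83 lost the threshold, 5 gained it and 34 changed sign, of which 33 were past the threshold neither as reported nor under the alternative. Tet2 and Tet3 passed in Tet2KO against WT, dKO against WT and dKO against Id1KO under every alternative run. The summing of libraries per label was run for the pairwise comparisons that isolate 1 label and not for dKO against WT or the interaction, and the fit of only the libraries compared not for the interaction. With libraries summed, 2 of the 10 genes passed for the Tet2 label and 0 for the Id1 label, among 232 and 7 genes. Uhrf1 in Id1KO against WT, at -0.07 and past the threshold as reported, then differed in sign from the pooled Id1 effect of 0.00076. Uncalled values that changed sign there were Uhrf1 in Tet2KO against WT (0.029), Dnmt1 in dKO against Tet2KO (-0.0017) and Dnmt3b in dKO against Id1KO (-0.022). That fit has 1 residual degree of freedom and an additive model, so each effect pools both backgrounds and estimates no single comparison. For Uhrf1 the 2 comparisons pooled for the Id1 label were -0.07 in Id1KO against WT and 0.07 in dKO against Tet2KO. The cause of differences between backgrounds was not tested. The Tdg interaction, 0.0024 as reported, was -0.0014 with RLE scaling and with DESeq2 and -0.0061 with overlapping genes summed. With DESeq2, 2 of the 10 passed in Id1KO against WT and 1342 genes in the interaction.

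Leaving out 1 library at a time gave, of all genes, 3808 to 4964 in Tet2KO against WT, 1512 to 2386 in Id1KO against WT, 1999 to 2784 in dKO against WT, 2951 to 3847 in dKO against Tet2KO, 2109 to 2837 in dKO against Id1KO and 1582 to 2161 in the interaction. Of the 10 genes the ranges were 4 to 5, 0 to 4, 2 to 3, 3 to 7, 3 to 5 and 2 to 3 in that order. In Id1KO against WT the count fell to 2 without WT replicate 1 or Id1KO replicate 2, to 1 without Id1KO replicate 1 or 3 and to 0 without WT replicate 3. In dKO against Tet2KO it fell to 3 without Tet2KO replicate 2 or 3 and to 4 without any 1 dKO library. In dKO against Id1KO it was 5 without dKO replicate 2. Uncalled values that changed sign ranged, for Dnmt1, from -0.023 to 0.0077 in Id1KO against WT, -0.0081 to 0.016 in dKO against Tet2KO and -0.0057 to 0.027 in the interaction. For Tdg they ranged from -0.069 to 0.046 in Tet2KO against WT, -0.055 to 0.060 in Id1KO against WT, -0.089 to 0.026 in dKO against WT and -0.080 to 0.035 in the interaction. Dnmt3a in dKO against WT ranged from -0.016 to 0.020, Idh2 from -0.0018 to 0.055 there and -0.049 to 0.0099 in the interaction, and the Idh1 interaction from -0.0076 to 0.061. The cause of these changes was not tested.

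The labels do not say what a replicate number marks, and not every same-numbered pair correlated, so the libraries were not treated as paired. Deviations from label means correlated at -0.28 to 0.31 for libraries of the same number (18 pairs) and -0.32 to 0.45 for others (36 pairs). For 10 of 12 libraries the mean correlation was higher with libraries of their own number than with others, a hint from the data and not from the design. With a replicate block 5, 3, 2, 6, 3 and 3 of the 10 genes passed, among 4523, 1952, 2565, 3592, 2576 and 1871 genes. The Uhrf1 differences in Id1KO against WT and dKO against Tet2KO missed the threshold with the block, and no other call of the 10 changed. The SEs of the pairwise differences were 0.025 on the log2 scale for Dnmt1 and 0.048 to 0.050 for Tdg.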
